A study of Homo sapiens with 9 samples.

Results

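The genes described here make cholesterol, move it inside the cell and set how much of it is made. The list holds 29 genes, chosen by name for their place in the pathway, with earlier results of these data known. These are 19 enzymes from acetoacetyl-CoA to the last sterol step, 7 genes of the sterol sensor and its transcription factors, and 3 of sterol transport. They were measured among 59453 gene names in MDA-MB-231 cells, an established human triple-negative breast cancer (TNBC) line, left untreated or treated with TEPA, a polyamine copper chelator, for 8 h or 24 h. Each group had 3 replicates, cells were grown in DMEM with 10% FBS, and the same untreated libraries served both times. There was no separate untreated group for each time, so hours of TEPA and hours in culture cannot be told apart. The TEPA concentration was 8 mM in the sample labels and 4 mM in the RNA sequencing methods, and the labels' treatment text names only 24 h. No source states that the replicates were separate cultures, so p-values measure only the spread between these libraries, which may be technical.

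Libraries held from 34633755 to 49342659 counts, and all 29 genes passed the expression filter that left 16556 genes for testing, with at least 130 counts in every library. Levels are CPM, the count of a gene relative to its library size scaled by TMM. A gene was called lower or higher at a Benjamini-Hochberg adjusted p under 0.05 in edgeR's quasi-likelihood test. The labelled cell type fitted its defining markers: VIM was at 3674 CPM and CD44 at 859 CPM in untreated cells, against 0.624 for the epithelial CDH1, 1.13 for EPCAM and 0.155 for the estrogen receptor gene ESR1. The progesterone receptor gene PGR had 0 counts in each library, which allows up to 3, and the blood marker PTPRC had at most 5. VIM averaged 4387 CPM at 8 h and 3387 at 24 h, CD44 1077 and 865, and CDH1 0.351 and 3.19. The endothelial marker PECAM1 averaged 3.59 CPM in untreated cells, 1.06 at 8 h and 8.13 at 24 h, and the fibroblast collagen COL1A1 averaged 13.7, 32.4 and 18 CPM. Their part in the results below was not tested. Mitochondrially encoded genes took 1.79 to 2.91% of untreated counts, 3.61 to 4.02% at 8 h and 1.89 to 2.02% at 24 h.

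Cells build cholesterol from acetyl-CoA through mevalonate, isoprenoid diphosphates, squalene and lanosterol. The SREBP transcription factors, made by SREBF1 and SREBF2, are held in the endoplasmic reticulum (ER) by SCAP and the INSIG proteins when sterol is plentiful. When sterol is scarce, SCAP carries them to the Golgi, where a pair of proteases cuts them free to enter the nucleus and switch on sterol and fatty acid genes, INSIG1 and SREBF2 among them. Breast cancer cells in serum can also take up cholesterol from lipoproteins, and NPC1 passes that cholesterol out of the lysosome.

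Promoters of genes that SREBPs switch on are known to carry sterol response elements beside CCAAT boxes, which bind NF-Y, and GC boxes, which bind SP1. The stretch before the start of 4 genes is shown because INSIG1, SREBF2 and MSMO1 were among the genes that fell most, while SCAP was not called at 8 h. Each is the 250 bases before the RefSeq start on GRCh38.p14, written along the gene's strand: INSIG1 chr7:155297628-155297877 (+), SREBF2 chr22:41832855-41833104 (+), MSMO1 chr4:165327419-165327668 (+) and SCAP chr3:47475942-47476191 (-). Capitals mark CACNCCAC, a core of the sterol response element, TCACGTGA, an E-box, and CCAAT, each searched on both strands, so that ATTGG is CCAAT on the other strand.
INSIG1: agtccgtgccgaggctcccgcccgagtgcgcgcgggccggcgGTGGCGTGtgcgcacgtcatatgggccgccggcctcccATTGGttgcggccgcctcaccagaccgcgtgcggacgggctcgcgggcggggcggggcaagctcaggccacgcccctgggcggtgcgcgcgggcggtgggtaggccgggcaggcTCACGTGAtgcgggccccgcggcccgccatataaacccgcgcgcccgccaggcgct
SREBF2: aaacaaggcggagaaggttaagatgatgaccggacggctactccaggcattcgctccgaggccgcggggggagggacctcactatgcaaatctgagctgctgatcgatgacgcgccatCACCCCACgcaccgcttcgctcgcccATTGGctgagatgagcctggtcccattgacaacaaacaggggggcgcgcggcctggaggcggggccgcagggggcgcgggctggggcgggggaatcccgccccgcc
MSMO1: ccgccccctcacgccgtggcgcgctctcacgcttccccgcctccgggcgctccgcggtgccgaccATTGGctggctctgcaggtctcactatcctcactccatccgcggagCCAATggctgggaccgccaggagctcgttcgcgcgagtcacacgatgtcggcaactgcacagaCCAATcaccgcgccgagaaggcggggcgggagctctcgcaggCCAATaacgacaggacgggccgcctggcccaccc
SCAP: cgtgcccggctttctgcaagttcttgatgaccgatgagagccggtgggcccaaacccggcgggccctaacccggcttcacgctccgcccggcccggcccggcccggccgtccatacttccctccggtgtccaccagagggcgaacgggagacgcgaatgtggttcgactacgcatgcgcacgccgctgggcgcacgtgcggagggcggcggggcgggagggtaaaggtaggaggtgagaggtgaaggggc

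INSIG1 held all 3 motifs, SREBF2 held the response element core and a CCAAT box, MSMO1 held 4 CCAAT boxes and no core, and SCAP held none of them. This contrast was not general. SREBF1, at -1.30 on the log2 scale after 8 h, also held none of the 3, while MVD, TM7SF2 and EBP, not called at 8 h, held CCAAT. RefSeq entries of 300 bases, which reach 50 bases past the start, matched 26 of the 29 genes, and ACAT2, FDFT1 and SQLE had none. CCAAT stood in 18 of the 26 genes (69.2%), against 42.8% of the 11042 tested genes with an entry. Among the 21 genes with an entry that fell at 8 h, 15 held CCAAT, as did 3 of the 5 that were not called lower. The core CACNCCAC stood in 4 genes, IDI1, SC5D, SREBF2 and INSIG1 (15.4%, against 7.7%). Its longer form TCACNCCAC, which overlaps it, stood in SREBF2 alone of the 26 (3.85%, against 1.48%), TCACGTGA in INSIG1 alone (3.85%, against 2.2%) and the GC box GGGCGG in 23 (88.5%, against 76.3%). These are letter matches in short windows and not measured binding. In GENCODE, SCAP on the minus strand reaches chr3:47477126 and INSIG1 starts at chr7:155297776. The SCAP stretch and the end of the INSIG1 stretch, with TCACGTGA, thus lie inside the genes as GENCODE places them.

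At 8 h of TEPA the pathway was lower at most of its steps. Of the 29 genes, 24 fell and 0 rose (82.8% and 0%), against 24.5% of all tested genes called lower and 25.2% called higher. In each of those 24 genes, all 3 TEPA libraries were below all 3 untreated libraries, a pattern seen in 28.6% of tested genes. A log2 fold change below -0.5 as well was met by 15 genes, against 7.67% of tested genes. The median log2 fold change of the 29 genes was -0.54, and that of all tested genes was -0.00. PMVK, MVD, TM7SF2, EBP and SCAP were the 5 genes not called.

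At 24 h the decrease was smaller and mixed. TEPA-treated cells had 16 genes lower (55.2%, against 26.8% of tested genes) and 3 higher (10.3%, against 25.7%), and the median log2 fold change was -0.21. The fold limit was passed by 6 lower genes, against 8.46%. Groups did not overlap in 13 genes that were lower (28.9% of tested genes) and in 2 that were higher (28.4%), PMVK and MBTPS1. Between the times, 18 genes were higher at 24 h than at 8 h (62.1%, against 26%) and 4 were lower (13.8%, against 28.8%), with a median of 0.33. Of those 18, 11 also passed the fold limit (10.4% of tested genes). Libraries of the 2 times did not overlap for 18 genes upward (29.6%) and for 5 downward (32.4%).

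**Figure D1:**
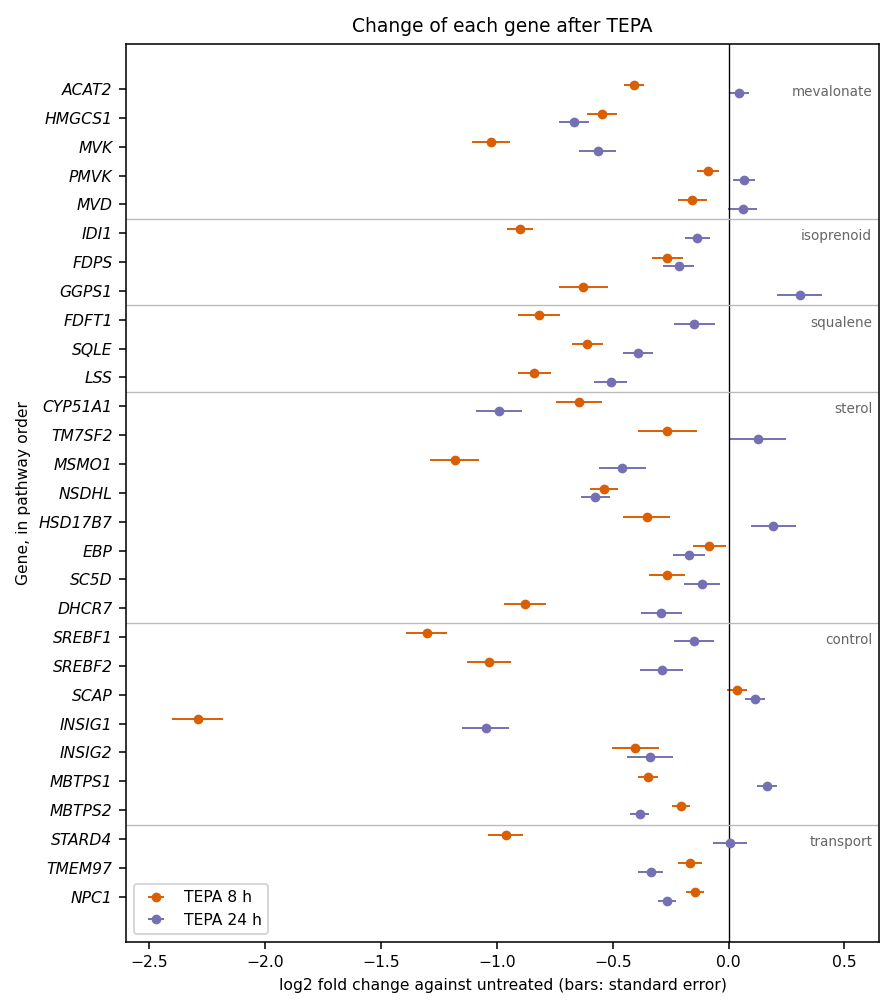
Log2 fold change of each of the 29 genes against untreated cells, on the horizontal axis, after 8 h (orange) and 24 h (violet) of TEPA, in pathway order from top to bottom with the 6 gene groups named at the right. Bars are standard errors. At 8 h every gene but SCAP lies left of 0, with INSIG1 at -2.29, and at 24 h points lie between -1.05 and 0.31.

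The direct comparison of times sorts the genes by course. In 8 genes the level fell at 8 h, was higher at 24 h than at 8 h and was still below untreated: MVK, IDI1, SQLE, LSS, MSMO1, DHCR7, SREBF2 and INSIG1. In 5 genes the level fell, came back up and was not called different from untreated at 24 h: ACAT2, FDFT1, HSD17B7, SREBF1 and STARD4. GGPS1 and MBTPS1 fell and then passed the untreated level. CYP51A1, MBTPS2, TMEM97 and NPC1 fell at 8 h and were lower again at 24 h. HMGCS1, FDPS, NSDHL and INSIG2 were lower at both times with no call between them, and SC5D was called at 8 h only. PMVK, MVD and TM7SF2 were called only between the times, SCAP only at 24 h, and EBP in no comparison.

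The genes of the sterol sensor held the widest range of change. INSIG1, which keeps SCAP in the ER when sterol is high, was at 145, 94.5 and 120.1 CPM in the untreated libraries, at 24.7, 25.4 and 23.3 at 8 h and at 55.8, 60.4 and 57.5 at 24 h. All TEPA libraries were below all untreated libraries, and the times did not overlap. Its log2 fold change was -2.29 ± 0.11 (SE) after 8 h (adjusted p = 8.4e-10), a level 4.90-fold lower and the 38th lowest value of the 16556 tested genes. At 24 h it was -1.05 ± 0.10 (adjusted p = 5e-07), and the difference between the times was 1.24 ± 0.11 (adjusted p = 2e-07). INSIG2, its relative, was at 20.2, 16.4 and 19.2 CPM untreated, 15.4, 12.6 and 14.1 at 8 h and 15.2, 12.6 and 16.2 at 24 h. Each TEPA group lay below the untreated libraries by a narrow margin, the 2 times overlapped, and its log2 fold change was -0.40 ± 0.10 after 8 h (adjusted p = 0.0035) and -0.34 ± 0.10 after 24 h (adjusted p = 0.0088), or -0.24 (adjusted p = 0.052) without TEPA 24 h replicate 2.

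SREBF1, which encodes SREBP1, the factor known more for fatty acid genes, was at 567, 420.1 and 479.8 CPM untreated, 175, 213 and 206 at 8 h and 429, 472 and 421 at 24 h. The 8 h libraries stood far below the rest, and the 24 h libraries lay inside the untreated range. Its log2 fold change was -1.30 ± 0.09 after 8 h (adjusted p = 2.1e-08). At 24 h it was -0.15 (95% interval -0.33 to 0.03, adjusted p = 0.16), and the rise between the times was 1.15 ± 0.09 (adjusted p = 3.5e-08). SREBF2, whose product SREBP2 acts mainly on cholesterol genes, was at 238, 165 and 188 CPM untreated, 88.5, 102 and 97.6 at 8 h and 156, 169 and 157 at 24 h. At 24 h a single library, replicate 2, reached into the untreated range. The log2 fold change of SREBF2 was -1.03 ± 0.09 after 8 h (adjusted p = 3.8e-07) and -0.29 ± 0.09 after 24 h (adjusted p = 0.016). That later call was lost without untreated replicate 1 (-0.13, adjusted p = 0.064) and without TEPA 24 h replicate 1 (-0.27, adjusted p = 0.057).

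SCAP, the escort that carries the SREBPs, was at 135, 126 and 127 CPM untreated, 129.7, 133 and 136 at 8 h and 140.2, 147 and 133 at 24 h. The 3 groups overlapped. Its log2 fold change was 0.04 at 8 h (95% interval -0.06 to 0.13, adjusted p = 0.51) and 0.11 ± 0.04 after 24 h (adjusted p = 0.036). The 24 h call of SCAP was lost without untreated replicate 2 or 3 and without TEPA 24 h replicate 1 or 2 (adjusted p from 0.094 to 0.16). The proteases that release the SREBPs parted after 8 h. MBTPS1, the protease that makes the initial cut, averaged 154 ± 9.93 CPM (SD, n = 3) untreated, 121 ± 1.25 at 8 h and 173 ± 4.51 at 24 h. MBTPS2, which makes the following cut within the membrane, averaged 92.1 ± 1.03, 79.9 ± 0.982 and 70.7 ± 3.37 CPM. MBTPS1 changed by -0.35 ± 0.04 after 8 h (adjusted p = 9.3e-06) and by 0.17 ± 0.04 after 24 h (adjusted p = 0.0043), whereas MBTPS2 changed by -0.20 ± 0.04 (adjusted p = 0.00059) and -0.38 ± 0.04 (adjusted p = 1.1e-06) on the log2 scale.

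**Figure D2:**
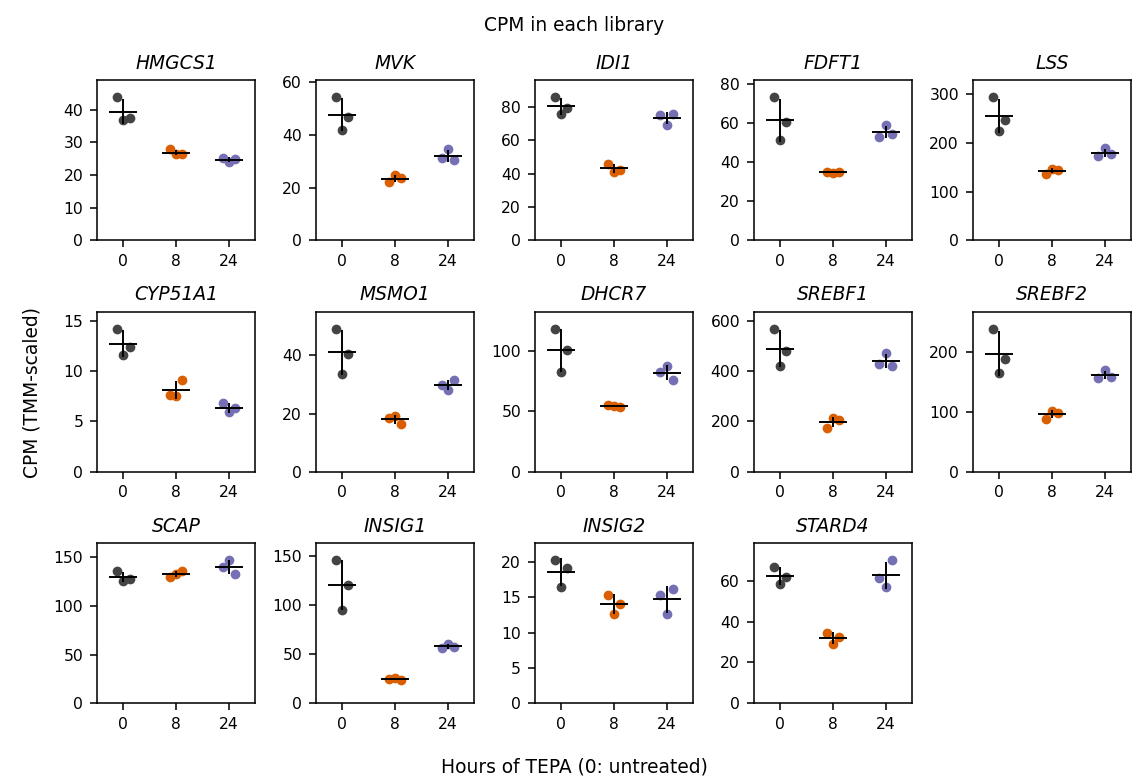
CPM (vertical axis, from 0) in each library for 14 of the genes, against hours of TEPA with 0 for untreated. Points are the 3 libraries of a group, the horizontal dash is their mean and the vertical line their SD. The 8 h points of INSIG1, SREBF1 and STARD4 stand below all others, CYP51A1 and HMGCS1 are lowest at 24 h, and SCAP lies between 126 and 147 CPM throughout.

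The 5 genes of the steps that make and use mevalonate were split. ACAT2, the thiolase that opens the pathway, fell from 133 ± 4.52 to 99.9 ± 4.98 CPM at 8 h (log2 fold change -0.41 ± 0.04, adjusted p = 1.2e-06) and was at 137 ± 1.77 CPM at 24 h (0.04, 95% interval -0.04 to 0.13). HMGCS1, the synthase of the next step, was at 43.8, 36.8 and 37.5 CPM untreated, 27.9, 26.5 and 26.3 at 8 h and 25.2, 23.9 and 25.1 at 24 h. Both TEPA groups were below every untreated library, and the 24 h libraries were the lowest. HMGCS1 changed by -0.55 ± 0.06 after 8 h (adjusted p = 4.3e-06) and by -0.67 ± 0.06 after 24 h (adjusted p = 3.7e-07), and the difference between the times was not called (-0.12, 95% interval -0.26 to 0.02). MVK, which phosphorylates mevalonate, was at 54.2, 41.9 and 46.7 CPM untreated, 21.9, 24.7 and 23.5 at 8 h and 31.2, 34.7 and 30.3 at 24 h. The 3 groups of MVK were separate. Its log2 fold change was -1.03 ± 0.08 after 8 h (adjusted p = 1.1e-07) and -0.56 ± 0.08 after 24 h (adjusted p = 2.2e-05).

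The kinase and the decarboxylase that follow MVK moved little. PMVK averaged 34.1 ± 0.768 CPM untreated, 32.0 ± 1.43 at 8 h and 35.7 ± 0.634 at 24 h, and its log2 fold changes against untreated were -0.09 (95% interval -0.19 to 0.01) and 0.07 (-0.03 to 0.17). MVD averaged 49.5 ± 4.84, 44.3 ± 1.81 and 51.5 ± 2.84 CPM, with log2 fold changes of -0.16 (-0.29 to -0.02, adjusted p = 0.055) and 0.06 (-0.07 to 0.19). At 24 h both were higher than at 8 h, by 0.16 ± 0.05 for PMVK (adjusted p = 0.012) and 0.22 ± 0.06 for MVD (adjusted p = 0.0091). Over these 5 genes, summed levels were 287 to 323 CPM untreated, 222 to 235 at 8 h and 274 to 288 at 24 h.

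The 3 isoprenoid genes all fell at 8 h, against 24.5% of tested genes. IDI1, which isomerises isopentenyl diphosphate, was at 85.8, 75.9 and 79.7 CPM untreated, 45.9, 41.0 and 42.3 at 8 h and 75.0, 69.0 and 75.5 at 24 h. The 8 h libraries were far below the others, and the 24 h libraries lay just under the untreated ones. IDI1 changed by -0.90 ± 0.06 after 8 h (adjusted p = 8.7e-09) and by -0.14 ± 0.05 after 24 h (adjusted p = 0.046). The 24 h call was lost without untreated replicate 1 or 3 and without TEPA 24 h replicate 1 or 2, where its adjusted p reached 0.18. FDPS, which makes farnesyl diphosphate, averaged 206 ± 25.6, 172 ± 1.66 and 178 ± 11.4 CPM, with log2 fold changes of -0.27 ± 0.07 (adjusted p = 0.0039) and -0.21 ± 0.07 (adjusted p = 0.013). At 24 h FDPS lost its call without untreated replicate 1, TEPA 24 h replicate 1 or TEPA 24 h replicate 3 (adjusted p = 0.053 to 0.058).

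GGPS1, which makes geranylgeranyl diphosphate for protein prenylation and so leads away from sterols, averaged 11.5 ± 1.95 CPM untreated, 7.40 ± 0.295 at 8 h and 14.1 ± 0.724 at 24 h. It fell at 8 h (-0.63 ± 0.10, adjusted p = 0.00014), and by 24 h it exceeded the untreated level (0.31 ± 0.10, adjusted p = 0.015), although untreated replicate 1, at 13.6 CPM, reached the lower end of the 24 h libraries. The later call was lost without untreated replicate 2, untreated replicate 3 or TEPA 24 h replicate 2, with adjusted p from 0.052 to 0.082. The difference between the times, 0.93 ± 0.10, had an adjusted p of 1.5e-06.

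Squalene and lanosterol are made by FDFT1, SQLE and LSS. All 3 genes fell at 8 h (24.5% of tested genes) and were higher at 24 h than at 8 h (26%). FDFT1, the squalene synthase, was at 73.2, 51.3 and 60.4 CPM untreated, 35.1, 34.3 and 35.2 at 8 h and 52.8, 59.1 and 54.5 at 24 h. The 8 h libraries were low and close together, and the 24 h libraries lay inside the untreated range. Its log2 fold change was -0.82 ± 0.09 after 8 h (adjusted p = 2.8e-06) and -0.15 at 24 h (95% interval -0.34 to 0.04, adjusted p = 0.17). LSS, which closes the ring to lanosterol, was at 293, 223 and 247 CPM untreated, 137, 147 and 144 at 8 h and 172, 189 and 176 at 24 h. The 3 groups of LSS were separate, with untreated cells highest and 8 h lowest. It changed by -0.84 ± 0.07 after 8 h (adjusted p = 2.1e-07) and by -0.51 ± 0.07 after 24 h (adjusted p = 2.1e-05). SQLE, the epoxidase between them, averaged 27.4 ± 2.21, 17.9 ± 0.833 and 20.9 ± 0.69 CPM, with log2 fold changes of -0.61 ± 0.07 (adjusted p = 2.1e-06) and -0.39 ± 0.06 (adjusted p = 0.00011).

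From lanosterol to cholesterol, 6 of the 8 genes fell at 8 h and 4 were lower at 24 h, against 24.5% and 26.8% of tested genes. CYP51A1, the lanosterol demethylase, was at 14.2, 11.6 and 12.3 CPM untreated, 7.65, 7.53 and 9.14 at 8 h and 6.87, 5.91 and 6.28 at 24 h. Its libraries at 24 h were below those at 8 h, which were below all untreated ones. CYP51A1 changed by -0.65 ± 0.10 after 8 h (adjusted p = 5.8e-05), by -0.99 ± 0.10 after 24 h (adjusted p = 6.5e-07) and by -0.35 ± 0.10 between the times (adjusted p = 0.01). Rows named as CYP51A1 pseudogenes held 8.40% as many counts as the gene, so some reads could be assigned to either. MSMO1, the oxidase that removes methyl groups from the ring, was at 49.1, 33.6 and 40.4 CPM untreated, 18.5, 19.3 and 16.2 at 8 h and 29.9, 28 and 31.6 at 24 h. The 3 groups were separate, although untreated replicate 2 was close to the 24 h libraries. MSMO1 changed by -1.18 ± 0.11 after 8 h (adjusted p = 3.5e-07) and by -0.46 ± 0.10 after 24 h (adjusted p = 0.0014).

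DHCR7, the reductase of the final steps, was at 118, 82.9 and 100.4 CPM untreated, 55.2, 54.4 and 53.9 at 8 h and 82.3, 87.7 and 76.0 at 24 h. The 24 h libraries overlapped untreated replicate 2 only. Its log2 fold change was -0.88 ± 0.09 after 8 h (adjusted p = 1.2e-06) and -0.29 ± 0.09 after 24 h (adjusted p = 0.012), and the later call was lost without untreated replicate 1 (-0.16) or TEPA 24 h replicate 3 (-0.24). NSDHL, a decarboxylase acting after MSMO1, averaged 26.9 ± 1.69, 18.5 ± 0.224 and 18.1 ± 0.93 CPM, lower by a like amount at both times (-0.54 ± 0.06 and -0.58 ± 0.06, adjusted p = 3.7e-06 and 1.2e-06). HSD17B7, the ketone reductase of the same complex, averaged 15.1 ± 2.73, 11.7 ± 0.404 and 17.1 ± 1.04 CPM, and its log2 fold change of -0.35 ± 0.10 after 8 h (adjusted p = 0.009) gave way to 0.19 at 24 h (95% interval -0.01 to 0.40). HSD17B7 pseudogene rows held 11.1% as many counts as the gene.

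The other 3 sterol genes changed least. SC5D, a desaturase, averaged 24.3 ± 0.924, 20.2 ± 1.24 and 22.4 ± 2.60 CPM and fell at 8 h (-0.26 ± 0.08, adjusted p = 0.01), with -0.12 at 24 h (95% interval -0.28 to 0.05). TM7SF2, a reductase and the least abundant gene of the list, averaged 4.55 ± 0.405, 3.78 ± 0.663 and 4.97 ± 0.328 CPM, with log2 fold changes of -0.26 (-0.54 to 0.01) and 0.13 (-0.13 to 0.39). EBP, the sterol isomerase, averaged 17.9 ± 1.14, 16.9 ± 0.948 and 15.9 ± 1 CPM, with -0.08 (-0.23 to 0.07) and -0.17 (-0.32 to -0.02, adjusted p = 0.053). Summed levels of the 8 sterol genes were 211 to 276 CPM untreated, 149 to 154 at 8 h and 194 to just under 200 at 24 h.

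The 3 transport genes took separate courses. STARD4, a carrier of sterol between membranes, was at 67.1, 58.5 and 62.1 CPM untreated, 34.6, 29.1 and 32.5 at 8 h and 61.4, 57.2 and 70.2 at 24 h. The 8 h libraries were all below the others, and the 24 h libraries spanned the untreated range. STARD4 changed by -0.96 ± 0.08 after 8 h (adjusted p = 9.6e-08) and by 0.01 at 24 h (95% interval -0.15 to 0.16), and the rise between the times was 0.97 ± 0.08 (adjusted p = 4.5e-08). TMEM97, which binds NPC1, averaged 39.5 ± 1.42, 35.2 ± 2.32 and 31.3 ± 0.204 CPM. NPC1, which exports cholesterol from the lysosome, averaged 158 ± 4.45, 142 ± 0.463 and 131 ± 5.14 CPM. Both decreases were small: -0.17 ± 0.05 (adjusted p = 0.016) and -0.34 ± 0.05 (adjusted p = 6.2e-05) for TMEM97, and -0.15 ± 0.04 (adjusted p = 0.0049) and -0.27 ± 0.04 (adjusted p = 2.6e-05) for NPC1.

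Per kilobase of exon, with exon lengths from GENCODE on hg38 and not from the annotation used for counting, SREBF1 was the highest of the 29 genes in untreated cells, at 59.4 ± 8.98 CPM per kb (SD, n = 3). It was followed by FDPS at 55.5 ± 6.88 and ACAT2 at 50.3 ± 1.71, and neighbours in this order did not differ beyond their spread. LSS (35.2 ± 4.89), PMVK (34.0 ± 0.767) and INSIG1 (32.9 ± 6.96) came next and did not differ beyond their spread. At 8 h the order opened with FDPS (46.2 ± 0.446), ACAT2 (37.9 ± 1.89), PMVK (32.0 ± 1.42) and SREBF1 (24.1 ± 2.45), and INSIG1, at 6.70 ± 0.284 CPM per kb, ranked 18 in place of 6. INSIG1 was at 32.9 CPM per kb against 4.71 ± 0.499 for INSIG2 in untreated cells, and at 8 h the pair stood at 6.70 and 3.55 ± 0.348. By 24 h INSIG1 had a level of 15.9 ± 0.648 CPM per kb and ranked 10. TM7SF2 was the lowest in each group, at 1.33 ± 0.119, 1.11 ± 0.195 and 1.46 ± 0.0962 CPM per kb.

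**Figure D3:**
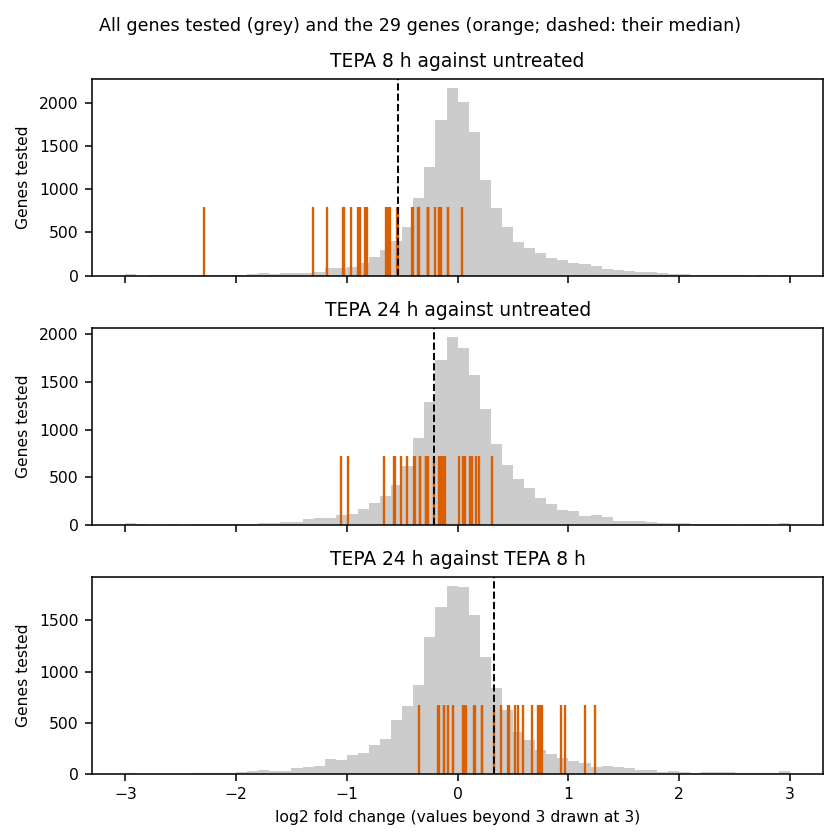
Log2 fold changes of all 16556 tested genes (grey bars, number of genes per 0.1) in the 3 comparisons, with the 29 genes as orange ticks and their median as a dashed line. The ticks sit left of the grey peak at 8 h (median -0.54), nearer to it at 24 h (median -0.21) and right of it for 24 h against 8 h (median 0.33). The tick height carries no value.

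The untreated libraries differed among themselves in these genes. Untreated replicate 1 was the highest of the 3 for 23 of the 29 genes, a place it held for 38.9% of all tested genes, and untreated replicate 2 was the lowest for 26, against 34.4%. Median log2 ratios of the 29 genes to the untreated mean were 0.13, -0.14 and -0.02 in untreated replicates 1, 2 and 3. They were -0.50, -0.56 and -0.47 at 8 h and -0.26, -0.21 and -0.21 at 24 h, so the 8 h libraries were well outside the untreated spread, while the 24 h medians were nearer to it. Summed over the 29 genes, levels were 2954, 2378 and 2611 CPM untreated, 1637 to 1700 at 8 h and 2239 to 2363 at 24 h, and every 24 h sum was below every untreated sum. The mitochondrial share of counts was larger at 8 h and, within the untreated group, in replicate 2 (2.91%, against 1.79% in replicate 1). At 24 h that share, 1.89 to 2.02%, lay inside the untreated range. Any link between the mitochondrial share and the sums was not tested. With mitochondrial genes left out of the library sizes, 25 genes were lower at 8 h. Fewer cells making these transcripts and less of them per cell cannot be told apart in bulk RNA.

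Which untreated libraries were used mattered at 24 h and little at 8 h. At 8 h, 22 to 25 genes were lower when any library was left out. TMEM97 lost its 8 h call without untreated replicate 3 or TEPA 8 h replicate 2 or 3 (adjusted p from 0.056 to 0.074), and SC5D without TEPA 8 h replicate 3 (adjusted p = 0.052). MVD gained a call there without untreated replicate 2 or TEPA 8 h replicate 2, as did TM7SF2 without the latter. At 24 h, 12 genes were lower without untreated replicate 1 and 19 without untreated replicate 2. Of the 19 genes called at 24 h, 7 lost the call when a library was left out: DHCR7, FDPS, GGPS1, IDI1, INSIG2, SCAP and SREBF2. Without untreated replicate 2, SREBF1 passed the test as lower at 24 h (-0.25, adjusted p = 0.011), as did FDFT1 (-0.27, adjusted p = 0.0036) and EBP (-0.22, adjusted p = 0.023). EBP also passed without TEPA 24 h replicate 2, and HSD17B7 was higher without untreated replicate 1 (0.34, adjusted p = 0.00065). Between the times, CYP51A1, NPC1, PMVK and TM7SF2 lost their calls without TEPA 8 h replicate 3 (adjusted p from 0.053 to 0.075). TMEM97 and TM7SF2 lost theirs without TEPA 8 h replicate 1, and NPC1 without TEPA 24 h replicate 3.

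**Figure D4:**
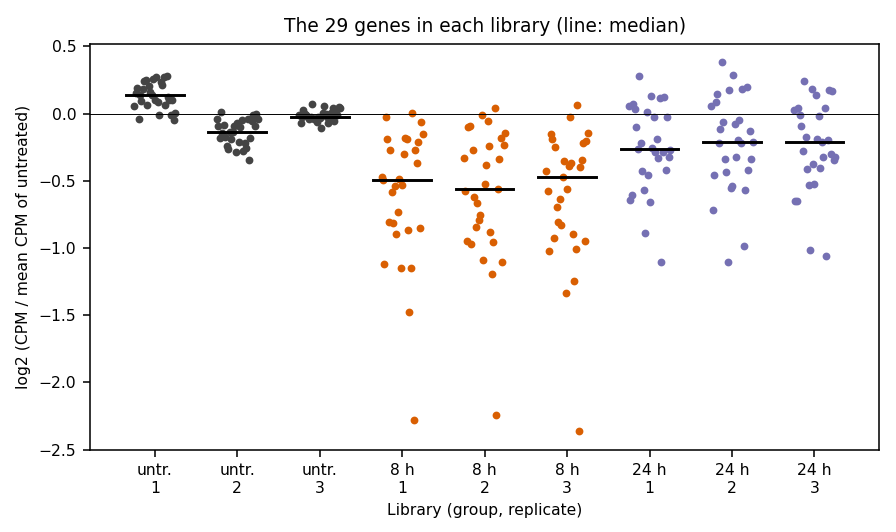
Each of the 29 genes as a point in each of the 9 libraries, as log2 of its CPM over its mean untreated CPM, with lines at the library medians. Untreated medians run from -0.14 to 0.13, the 8 h medians from -0.56 to -0.47 and the 24 h medians from -0.26 to -0.21.

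Genes next to the pathway were read from 4 lists. The 10 fatty acid genes linked to SREBP all fell at 8 h (median -0.54 on the log2 scale), and 7 were lower at 24 h with 0 higher. SCD, the desaturase that makes oleate, changed most at 8 h, from a mean of 1459 to 426 CPM (-1.78, adjusted p = 1.1e-08). At 24 h FADS2, a desaturase of polyunsaturated fatty acids, was lowest against untreated (434 to 214 CPM, -1.02, adjusted p = 2.5e-05). These counts of members are set against 24.5% and 26.8% of tested genes called lower.

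The lists that use or surround sterols and isoprenoids held calls in both directions. Their counts are set against 24.5% of tested genes lower and 25.2% higher at 8 h, and 26.8% lower and 25.7% higher at 24 h. Of 12 isoprenoid users, 5 were higher and 1 lower at 8 h, and 4 were higher and 3 lower at 24 h, the latter near those shares. RABGGTA, a subunit of the enzyme that prenylates Rab proteins, was the largest increase at both times (0.39, adjusted p = 0.00052, and 0.59, adjusted p = 7.3e-06). RABGGTB, its partner subunit, was higher at 8 h (0.31, adjusted p = 4.3e-05) and lower at 24 h (-0.24, adjusted p = 0.00039). The lower extremes were COQ2 at 8 h (-0.17, adjusted p = 0.019) and PDSS1 at 24 h (-0.41, adjusted p = 7.3e-05), both of coenzyme Q synthesis. Each went the other way at the other time, with COQ2 higher at 24 h (0.24, adjusted p = 0.0018) and PDSS1 higher at 8 h (0.26, adjusted p = 0.003). Electron donors and auxiliary sterol proteins gave 3 lower and 2 higher of 7 at 8 h, and 5 lower and 2 higher at 24 h. CYB5B, a cytochrome b5, was the lowest of them at both times (-0.44, adjusted p = 3.4e-07, and -0.45, adjusted p = 1.4e-07). The highest were EBPL at 8 h (0.16, adjusted p = 0.047) and ERG28 at 24 h (0.29, adjusted p = 0.007).

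Among 16 trafficking and storage genes, 8 were lower and 5 higher at 8 h, and 6 lower and 3 higher at 24 h. Against 24.5% lower and 25.2% higher of tested genes at 8 h, and 26.8% and 25.7% at 24 h, the 5 higher at 8 h and the 24 h counts were near the background. GRAMD1B, a sterol transfer protein, had the lowest value at 8 h (-0.64, adjusted p = 0.0033) and STARD5, another sterol carrier, the highest (0.67, adjusted p = 0.0051), both at under 6 CPM on average. At 24 h the extremes were the lipoprotein receptor gene VLDLR (-0.63, adjusted p = 0.00026) and LIPA, the lysosomal lipase that frees cholesterol from its esters (0.36, adjusted p = 0.00012). LIPA had been lower at 8 h (-0.54, adjusted p = 3.1e-06).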

How the data were processed

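The authors checked reads with FastQC, aligned them to hg38 with HISAT2 and used featureCounts with strand and an Ensembl GRCh38 annotation to assign read pairs to exons, summed by gene name. Libraries were TruSeq stranded mRNA, read as 100 bp pairs. The deposited values are raw counts per gene and library, with no normalization. Genes of the list were matched by symbol.

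Counts were analysed in R 4.3.3 with edgeR 4.0.16: filterByExpr with a minimum count of 10, TMM factors, and a quasi-likelihood fit of all 9 libraries together, with p-values adjusted by Benjamini-Hochberg over the 16556 tested genes. A call needs an adjusted p under 0.05. Standard errors were derived from each log2 fold change and its F, and intervals are 95% intervals from the same fit. The biological coefficient of variation was 4.81%. The procedure was tested on simulated data first.

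The genes and lists were chosen with earlier results of these data known. All 29 genes are named. Values per library are given for the 12 with the largest change at either time against untreated, and for SREBF1, SREBF2, SCAP, INSIG1 and INSIG2. Of 5 other lists, 1 is not reported here. For the rest, the most changed gene each way is named. LIPA and PDSS1 at 8 h, COQ2 at 24 h and RABGGTB at both times were named after their values were seen. The 8 h and 24 h comparisons share the untreated libraries, so no agreement between them is measured. No 2 libraries of a group differed by as little as sampling noise. Alternatives were RLE and upper-quartile factors, library sizes without mitochondrial genes, DESeq2 1.42.0, no filter, 10 counts in every library, a log2 fold limit of 0.5, a replicate block, fits of only the compared groups, and omission of each library in turn. Gene positions and exon lengths are from GENCODE on hg38.

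Other cell lines and other experiments of the study were not analysed here.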

Additional observations from a re-analysis of the deposited data

Results flagged for a closer look

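In edgeR's direct quasi-likelihood test of the times, the change from untreated differed between 8 h and 24 h for 22 of the 29 genes. At 24 h, 18 genes were higher than at 8 h (62.1%, against 26% of tested genes). The other 4 were lower (13.8%, against 28.8%), so calls between the times were common among all tested genes. In GGPS1 and MBTPS1 the change also turned from lower at 8 h to higher at 24 h. For GGPS1 the difference between the times was 0.93 on the log2 scale (adjusted p = 1.5e-06), and for MBTPS1 it was 0.52 (adjusted p = 1e-07). The higher level of GGPS1 against untreated at 24 h was lost when untreated replicate 2, untreated replicate 3 or TEPA 24 h replicate 2 was left out.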

How the results depend on the processing

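A log2 fold limit of 0.5 moved the counts of calls most, to 15 at 8 h, all lower, to 6 at 24 h, with 6 lower and 0 higher, and to 11 between the times, with 0 lower and 11 higher. Leaving out each library in turn gave 22 to 25 genes lower at 8 h, 12 to 19 lower and 1 to 4 higher at 24 h, and 16 to 19 higher and 2 to 4 lower between the times, the 2 without TEPA 8 h replicate 3. The other alternatives kept each count within 1.5 times. No called change reversed direction.

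IDI1 at 24 h was the least stable call, with an adjusted p of 0.06 with RLE factors, 0.11 with upper-quartile factors, 0.063 with 10 counts in every library, 0.058 with only the groups compared and 0.064 with DESeq2. DESeq2 also left DHCR7 (0.054) and SREBF2 (0.087) uncalled at 24 h and called MVD lower at 8 h (0.045). With no filter, MVD was called at 8 h (0.0078), and SREBF1 (0.00072), FDFT1 (0.013) and HSD17B7 (0.046) were called at 24 h. The cause was not tested.

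Deviations of libraries that share a replicate number correlated between -0.08 and 0.04 over genes, so the numbers were not read as pairs. With the replicate number as a block, the 8 h count of lower genes was 24, and the 24 h counts were 16 lower and 2 higher, since SCAP lost its call (0.11, adjusted p = 0.058). With 3 libraries a group, small 24 h changes were near the limit of what could be called.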
